A study of Mus musculus with 4 samples.

Results

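CD8 T cells of expanded clones were set against CD8 T cells of small clones within the tumours of mice that had received a plasmid for interleukin 12 (IL-12). The cells are those of the IL-12 library in the authors' table of T cells with a receptor sequence, in the class the authors called CD8 T cells. The authors' clone size column splits them at 10 cells, and barcodes join them to the gene expression table. Of 12979 cells in the IL-12 expression table and 17211 in the series, 2774 met this rule: 2175 cells in 22 expanded clones and 599 cells in small clones. The small-clone cells fall into 426 clones, and 2 of them carry no clone name.

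Live CD45-positive leukocytes were sorted from mouse breast tumours that were injected with IL-12 plasmid or with control plasmid and then electroporated. For each treatment the cells of 3 mice were pooled, and 1 library of 5′ transcript ends for gene expression and 1 for T cell receptors were made from the pool. The labels differ on the tumour: the growth protocol gives HER2 expression induced in mammary tissue of mice aged 1 month, the series text names triple-negative breast tumours, and library names in the tables name 4T1, a mouse mammary carcinoma line. With 1 library per treatment and mice that the files do not tell apart, neither cells nor clones are replicates. No test was made, and every interval below is an exact 95% interval that covers counting error alone.

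A T cell clone is the progeny of 1 T cell and carries its receptor, built from an alpha (TRA) and a beta (TRB) chain, so the number of cells that share a receptor records how far that cell's progeny has multiplied. CD8 T cells that meet antigen divide, leave the lymph node and arm themselves with perforin, granzymes and interferon-gamma. With lasting stimulation in a tumour they also take on inhibitory receptors such as PD-1, LAG-3 and TIM-3. Naive and stem-like T cells keep receptors for recirculation and the transcription factor TCF-1, encoded by Tcf7.

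The expanded cells were spread very unevenly over their clones. The 2 largest clones held 1203 of the 2175 cells (55.3%), the largest of them 618. Counted over every cell of the receptor table, the 22 clones had 6 to 640 cells, and 2 of them had under 10, although the authors' column places them above that size. The largest small clone had 9 cells, and 332 small clones had 1. The clone names also overstate the number of separate receptors. The 22 clones carried 12 different TRA and 11 different TRB chains, 16 of them shared a chain with another expanded clone, 3 had a TRA chain alone and 4 a TRB chain alone. Clones linked by a shared TRB chain form 10 receptor sets, numbered here by size. Set 1 is more than a single receptor, because clone 6 within it carries 2 TRB chains. The first 3 sets held 1026, 657 and 259 cells, set 4 held 34, set 5 held 32, set 6 held 26, and sets 7 to 10 held 18, 15, 14 and 13. The 3 clones without a TRB chain, with 81 cells, belong to no set. Links through any chain, TRA or TRB, give 9 sets over all 22 clones, so some of the 10 receptor sets are joined by a TRA chain. Among the small clones, 88 cells in 36 clones carried a chain that also occurs in an expanded clone. Of these 88 cells 41 carried 2 or more TRB chains, out of 58 such cells in the whole small arm. Whether they are doublets, 2 cells under 1 barcode, was not tested. None of the TRB chains of the expanded clones was found in the control table.

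**Figure D1:**
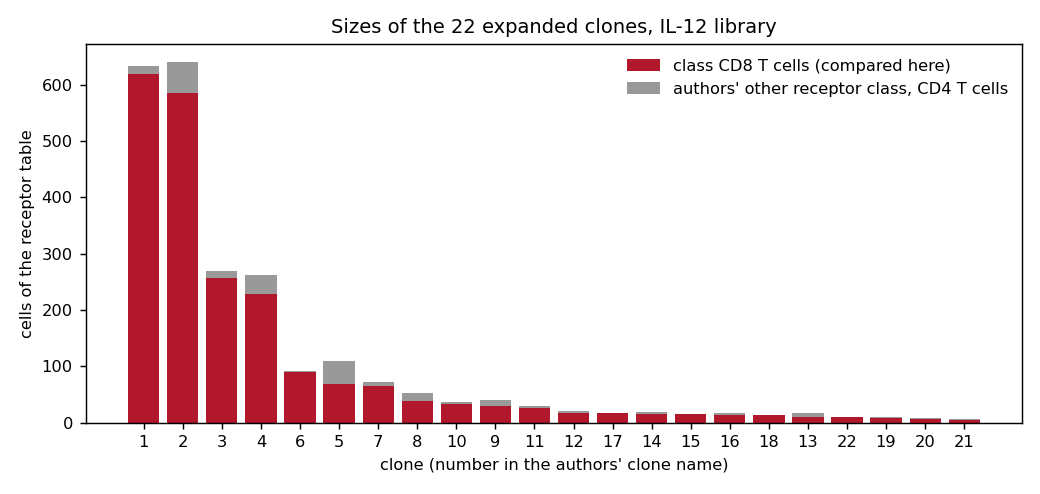
Cells of the receptor table (y axis) in each expanded clone of the IL-12 library (x axis, by the number in the authors' clone name), split into the CD8 class used here (red) and the CD4 class (grey). Clones 1 and 2 stand far above the rest with 618 and 585 CD8 cells, and 222 of the 2397 cells of these clones lie in the CD4 class.

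The depth of the arms was close. Expanded clones had 15297026 unique molecular identifiers (UMIs, counted molecules) with a median of 6357 per cell, against 4399987 and a median of 6614 in small clones. Within the small arm the median was 7569 UMIs in cells that share a chain with an expanded clone and 6493 in the others. Gene levels below are UMIs summed over the cells of an arm per 1000000 UMIs of that arm (CPM), so fewer cells with a gene and less RNA per cell cannot be told apart. Of the authors' clusters, cluster 5 held 81.5% of expanded (79.8 to 83.1%) and 72.8% of small-clone cells (69.0 to 76.3%). Cluster 12 held 17.9% of expanded (16.3 to 19.6%) and 26.0% of small-clone cells (22.6 to 29.8%), and cluster 8 held 0.598% and 1.17%. Cluster 12 carried transcripts of neutrophils: its 14 neutrophil markers summed to 63774 CPM in expanded and 65798 CPM in small-clone cells, against 709 and 918 CPM outside it. Over all clusters they summed to 15375 CPM in expanded and 19862 CPM in small-clone cells, with 14 of 14 higher in small clones, and their part in the results was not tested. Counts over all genes are given below without that cluster, and list counts also within cluster 5 where they differ by 2 or more calls. In all, 87 cell barcodes occur in both expression tables of the series.

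The markers of the CD8 label were found in nearly all cells of the expanded arm and in fewer of the small one. Cd8a or Cd8b1, the genes of the CD8 coreceptor, had a UMI in 2173 of 2175 expanded cells (99.9%) and in 457 of 599 small-clone cells (76.3%, 72.7 to 79.6%). Cd4, the coreceptor of helper T cells, or Foxp3, the factor that defines regulatory T cells, had a UMI in 1.70% of expanded cells (1.201 to 2.34%) and in 22.9% of small-clone cells (19.6 to 26.4%). This share was 33.1% in small clones of 1 cell, 14.0% in those of 2 to 4 cells and 3.19% in those of 5 to 9 cells. In neutrophils of the same library, with a median of 2553 UMIs per cell, 0.322% had such a UMI and 9.83% a Cd8a or Cd8b1 UMI. In 98 small-clone cells (16.4%) and in 0 of the expanded cells a Cd4 or Foxp3 UMI came without any of Cd8a or Cd8b1. The small arm of the authors' CD8 class thus holds cells with CD4 T cell transcripts, and results below are also given for restricted cells. These have a Cd8a or Cd8b1 UMI and none of Cd4 or Foxp3, and small-clone cells that share a chain with an expanded clone are left out, which leaves 2136 expanded and 335 small-clone cells.

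**Figure D2:**
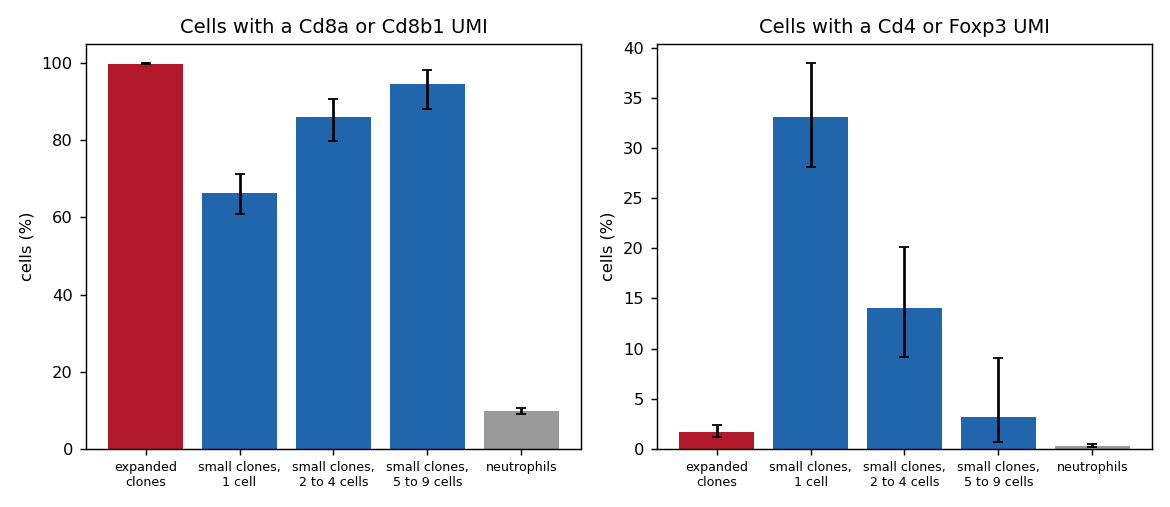
Share of cells (y axis, %) with a UMI of Cd8a or Cd8b1 (left) and of Cd4 or Foxp3 (right) in expanded clones, in small clones of 1, 2 to 4 and 5 to 9 cells, and in neutrophils of the IL-12 library. Bars give shares and error bars exact binomial 95% intervals: the share with Cd4 or Foxp3 is 33.1% in clones of 1 cell and 1.70% in expanded clones.

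Across all genes the arms were much alike. Genes were taken as measured where the arms together held 50 UMIs or more and 5% or more of the cells of an arm had a UMI, and as past the threshold with a CPM ratio of at least 1.5 after adding 1 CPM to both levels. Of 6592 measured genes, 188 (2.85%) were higher in expanded clones and 336 (5.1%) were lower, while 6068 lay within the threshold. Without cluster 12 the numbers were 200 and 369, and without the largest clone 229 and 330. Within cluster 5 they were 214 (3.32%) and 361 (5.6%) of 6447 measured genes, and within cluster 12 they were 361 (6.61%) and 311 (5.69%) of 5462. In cells with a Cd8a or Cd8b1 UMI and none of Cd4 or Foxp3, shared chains kept in, 173 (2.63%) of 6588 were higher and 251 (3.81%) lower. In the restricted cells 268 of 6578 measured genes were higher (4.07%) and 295 were lower (4.48%). Of the genes called higher in all cells and measured in both versions, 74.9% were called higher in the restricted cells too, which is 52.6% of the calls made there. For lower genes these shares were 58.3% and 63.5%.

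**Figure D3:**
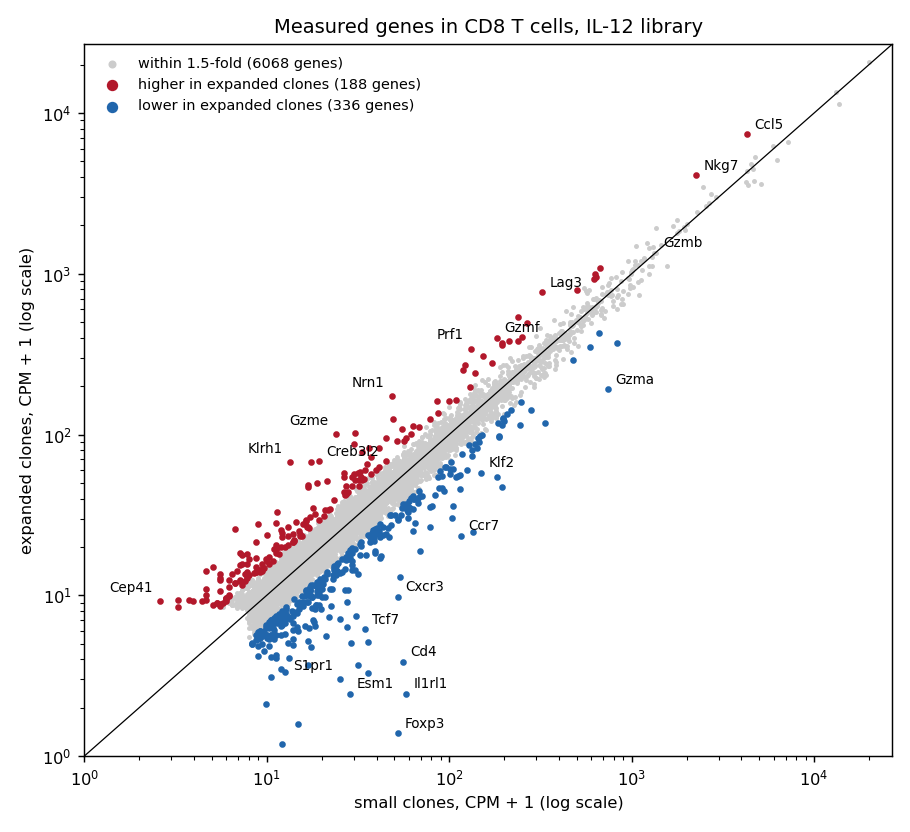
Level of each measured gene in expanded clones (y axis) and in small clones (x axis), in CPM + 1 on log scales, IL-12 library. The 188 genes at least 1.5-fold higher in expanded clones are red, the 336 at least 1.5-fold lower are blue, and the line marks equal levels. Foxp3, Il1rl1 and Cd4 lie farthest below the line and Gzmb lies on it.

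The genes that stood highest in expanded clones were a mixed group led by a lectin-like receptor and the granzyme gene Gzme. Klrh1, a member of the killer cell lectin-like receptor family, had 1023 UMIs in expanded clones and 55 in small clones, 66.9 CPM against 12.5 CPM, a 5.35-fold higher level (4.08 to 7.15). Klrh1 has no entry in the gene annotation used here, so its sequence overlap with other genes was not counted. Gzme, a granzyme of the cluster of granzyme genes on chromosome 14 (56117626 to 56120625, minus strand, mm10), stood at 100.5 CPM against 22.95 CPM, 4.38-fold higher (3.58 to 5.41). Its neighbour Gzmd (56129556 to 56132608) stood at 100.9 CPM against 29.5 CPM, 3.41-fold higher (2.85 to 4.12). The 2 genes are alike in sequence: 12.6% of the 60-base stretches of Gzme and 14.6% of those of Gzmd occur in another gene, mainly in each other, so the split of UMIs between them is uncertain. Both came from few cells, since 1% of the expanded cells held 58.8% of the Gzme and 66.6% of the Gzmd UMIs.

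Nrn1, which encodes neuritin, a small membrane-anchored protein known from neurons, had the most UMIs of the 12 genes of largest ratio. It stood at 172 CPM in expanded clones against 47.5 CPM in small clones, 3.63-fold higher (3.15 to 4.19), and had a UMI in 41.3% of expanded, 16.2% of small-clone and 1.13% of neutrophil cells. Creb3l2, a membrane-bound transcription factor of the CREB family, stood at 67.1 CPM against 18.4 CPM (3.65-fold, 2.91 to 4.63). Gldc, the glycine decarboxylase of mitochondria, stood at 66.1 CPM against 16.6 CPM (3.98-fold, 3.14 to 5.12), and Mest, an imprinted gene of the hydrolase family, at 24.8 CPM against 5.68 CPM (4.37-fold, 2.92 to 6.84). Fcrl6, an Fc receptor-like protein known from cytotoxic lymphocytes in humans, stood at 26.8 CPM against 7.95 CPM (3.37-fold, 2.38 to 4.91). Calca, the gene of calcitonin and its related peptide, stood at 86.6 CPM against 29.1 CPM (2.98-fold, 2.48 to 3.60), with 55.1% of its expanded-arm UMIs in the largest clone. Calca was not higher in every receptor set. Set 1, the largest, stood at 25.4 CPM and sets 6 to 8 at 0 to 8.48 CPM, below the small clones. Sets 2 to 5, 9 and 10 lay at 40.1 to 241 CPM.

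Cep41, a centrosomal protein, Gpr162, a G protein-coupled receptor with no known ligand, and Tmprss6, a membrane serine protease that is known from liver, completed the 12 at lower levels. Cep41 rested on 125 UMIs in expanded clones and 7 in small clones, and its interval was wide (5.14-fold, 2.42 to 13.04). All 12 were past the threshold in the restricted cells too, where Klrh1 was 6.75-fold, Mest 6.08-fold, Creb3l2 5.97-fold and Gzme 5.15-fold higher in expanded clones.

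**Figure D4:**
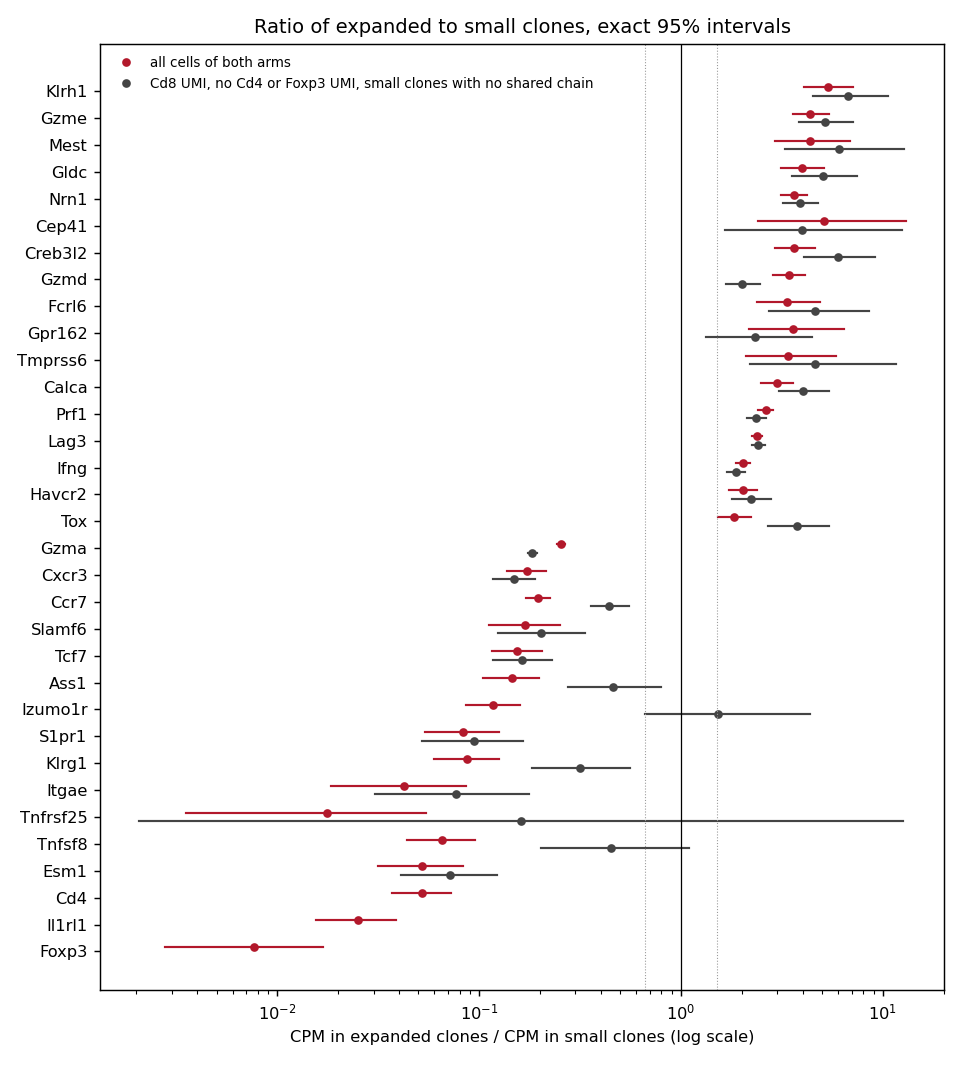
Ratio of the CPM in expanded clones to that in small clones (x axis, log scale) for 12 genes of largest ratio, 12 of smallest ratio and 9 further T cell genes (y axis). Red points are all cells, dark points the restricted cells, and lines exact 95% intervals; genes at 0 UMIs in either arm of the restricted cells have no dark point. Klrh1, Mest and Creb3l2 lie farther right in the restricted cells and Gzmd less far, while Izumo1r, far left in all cells, does not stay there.

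The spread over the receptor sets shows how far a few clones carry these levels. Klrh1 stood at 89.8 CPM in set 1, 34.8 in set 2, 107 in set 3 and 193 in set 9, and at 0 to 16.7 CPM in the other 6 sets, of which sets 7 and 10 had no UMI. Gzme stood at 339 CPM in set 7, at 126, 99.6 and 125 CPM in sets 1, 2 and 8, and at 4.18 to 49.1 CPM in the others. In Fcrl6 all 10 sets, with 11.2 to 36.2 CPM, lay above the 7.95 CPM of small clones. The small sets hold few UMIs of such genes (set 9 had 16 of Klrh1), so their order is loose. Clones within a set can differ too: in set 1 Gzme stood at 97.7 CPM in clone 2 and 337 CPM in clone 6.

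Cytotoxic molecules differed in both directions. Of 17 measured members of the list of cytotoxic effectors, 6 were higher and 3 lower in expanded clones, beside 2.85% and 5.1% of all measured genes, with a median log2 ratio of 0.17 beside -0.02. Among restricted cells 5 were higher and 3 lower, beside 4.07% and 4.48% of all genes, with a median of -0.02. Prf1, the pore-forming perforin, stood at 342 CPM (333 to 351) in expanded clones against 130 CPM (120 to 141) in small clones, 2.63-fold higher, and 2.36-fold higher in the restricted cells. In Prf1 8 of the 10 receptor sets lay above the small clones, with a range of 99.7 to 418 CPM. Nkg7, a protein of cytotoxic granules, stood at 4091 CPM against 2252 CPM (1.82-fold, 1.78 to 1.86), and Gzmf at 399 CPM against 181 CPM (2.20-fold, 2.04 to 2.37).

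Gzmb, the granzyme most tied to killing by CD8 T cells, was equal between the arms at 1355 CPM in expanded and 1356 CPM in small clones (0.999-fold, 0.971 to 1.03). Within the expanded arm it ran from 699 CPM in set 9 to 5598 CPM in set 6. Gzma went the other way, with 190 CPM (183 to 197) against 746 CPM (721 to 772), 3.93-fold lower in expanded clones (3.74 to 4.13), and 5.45-fold lower in the restricted cells. The expanded arm was split in Gzma: sets 6 and 7 stood at 4505 and 4401 CPM, while the other 8 sets lay between 0 and 265 CPM. Gzmk, a granzyme of less differentiated effector and memory cells, stood at 88.6 CPM against 144 CPM (1.63-fold lower, 1.48 to 1.79), and Gzmc at 81.4 CPM against 141 CPM (1.73-fold lower, 1.57 to 1.91). Both were lower past the threshold in cluster 5 too. In cluster 12 Gzmc was higher past the threshold in expanded clones, and Gzmk was not called lower.

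**Figure D5:**
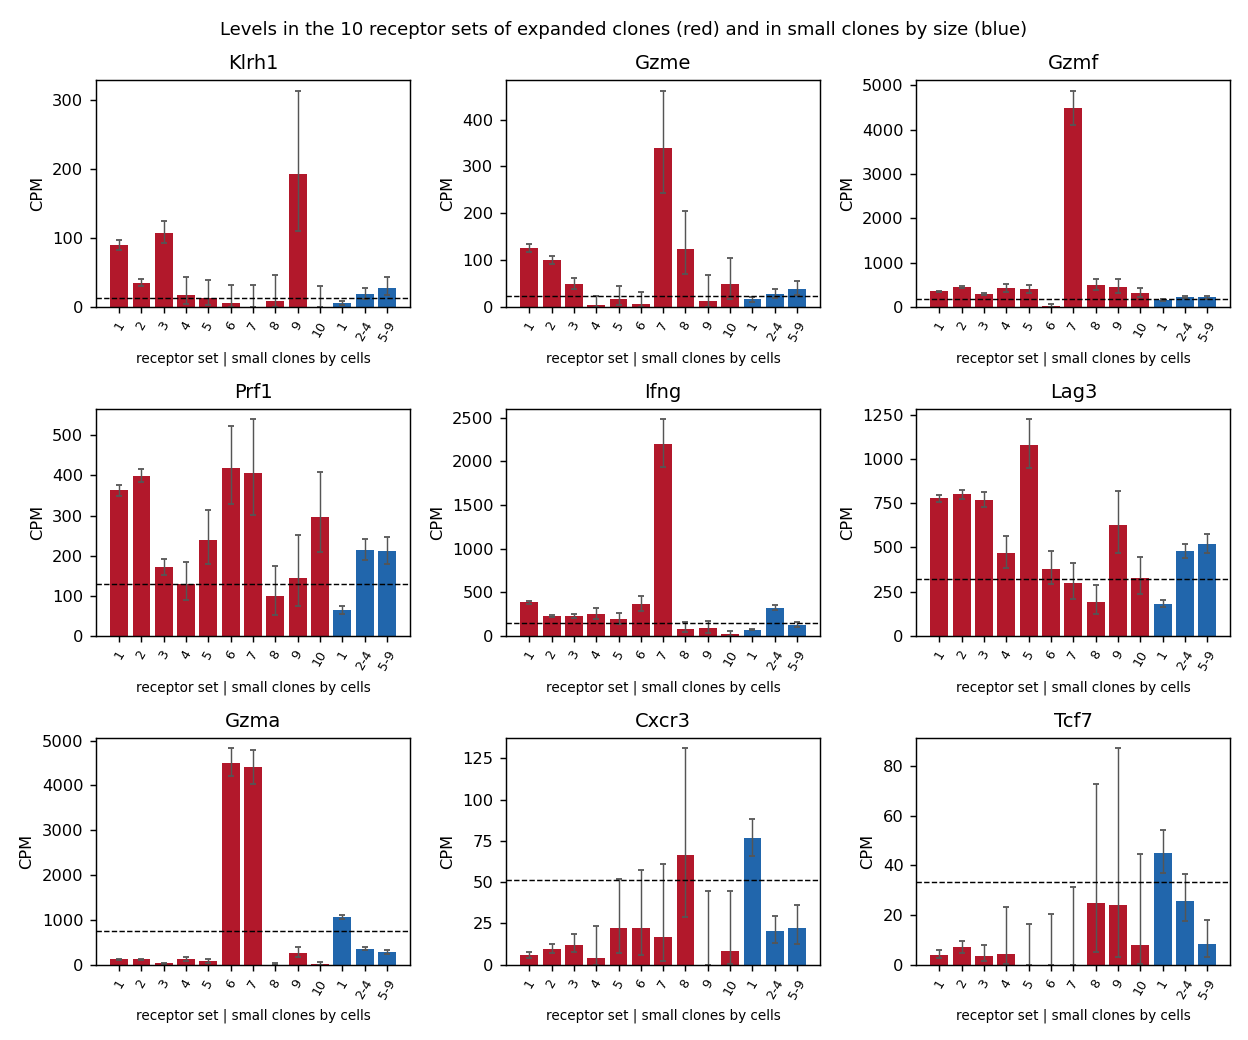
Levels of 9 genes (y axis, CPM) in receptor sets 1 to 10 of expanded clones (red) and in small clones of 1, 2 to 4 and 5 to 9 cells (blue), IL-12 library; error bars are exact Poisson 95% intervals and the dashed line is the level in all small-clone cells. Gzma reaches 4505 and 4401 CPM in sets 6 and 7 alone, Ifng 2196 CPM and Gzmf 4486 CPM in set 7, while Lag3 lies above the dashed line in 8 of 10 sets.

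Among cytokines, Ifng, the gene of interferon-gamma, the main product of T cells under IL-12, stood at 307 CPM (299 to 316) in expanded clones against 151 CPM (140 to 163) in small clones, 2.03-fold higher. Set 7, which held 259 of its 4703 UMIs in 18 cells, stood at 2196 CPM, while the other 9 lay between 16.03 and 384 CPM, and 33.4% of the UMIs lay in 1% of the expanded cells. Small clones of 2 to 4 cells stood at 322 CPM, above the expanded arm, and those of 1 cell at 72.0 CPM. Of the 60-base stretches of Ifng 18.5% also occur in another gene, mainly Gm49751, so its level carries that uncertainty. Ccl5, a chemokine of effector and memory T cells, stood at 7366 CPM against 4299 CPM (1.71-fold, 1.69 to 1.74), but at 1.45-fold in the restricted cells. Ccl3 and Ccl4, chemokines released on T cell receptor contact, lay within the threshold at 672 against 794 CPM and 893 against 1085 CPM. In cluster 5 alone both were higher in expanded clones, with log2 ratios of 0.91 and 0.90; neutrophils carry both, with a UMI in 82.0% and 68.4% of them. Of 8 measured genes of this list 2 were higher, and 2 lower, Tnf and Xcl1, beside 2.85% and 5.1% of all measured genes. In cluster 5 4 were higher and 1 lower, beside 3.32% and 5.6% of all genes. In the restricted cells Ifng was higher and Xcl1 lower, beside 4.07% and 4.48% of all genes.

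Genes of the exhaustion list were more often higher in expanded clones than lower. Of 17 measured members 7 were higher and 1 was lower (Nr4a1, an immediate target of the T cell receptor), beside 2.85% and 5.1% of all measured genes, with a median log2 ratio of 0.43. Among restricted cells 8 were higher and 0 lower, beside 4.07% and 4.48% of all genes, with a median of 0.44; Nr4a1 there stood at 22.9 CPM against 17.4 CPM. The calls in all cells were Lag3, Havcr2, Rgs16, Nr4a2, Tox, Eomes and Entpd1. Lag3, an inhibitory receptor for MHC class II, stood at 764 CPM (750 to 778) in expanded clones against 323 CPM (306 to 340) in small clones, 2.37-fold higher (2.24 to 2.51). After each cell was thinned to 1000 UMIs, 48.3% of expanded, 23.4% of small-clone and 1.45% of neutrophil cells kept a Lag3 UMI, against 93.5%, 61.9% and 3.89% unthinned. By clone size Lag3 stood at 182 CPM in small clones of 1 cell, 480 CPM in those of 2 to 4 cells and 522 CPM in those of 5 to 9 cells.

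Havcr2, the gene of TIM-3, stood at 81.5 CPM in expanded clones against 40.2 CPM in small clones (2.03-fold, 1.73 to 2.39), with 9 of 10 receptor sets above the small clones. Tox, a nuclear factor that keeps exhausted T cells in that state, stood at 56.3 CPM against 30.7 CPM (1.83-fold, 1.53 to 2.22). In the restricted cells its level in small clones was 14.9 CPM, and the ratio was 3.77-fold. Rgs16, an inhibitor of G protein signalling, stood at 369 CPM against 193 CPM (1.91-fold, 1.78 to 2.06). Pdcd1, the gene of PD-1, lay just within the threshold with 814 CPM against 545 CPM (1.49-fold, 1.43 to 1.56), and stood at 1.27-fold in the restricted cells. Tigit lay at 246 CPM against 256 CPM (0.960-fold, 0.898 to 1.03) and Ctla4 at 316 CPM against 349 CPM, both within the threshold. Lag3 and Havcr2 were thus past the threshold, and Pdcd1, Tigit and Ctla4 were not.

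Most genes of the list of naive, stem-like and memory T cells were lower in expanded clones. Of 16 measured members 11 were lower, 0 higher and 5 within the threshold, beside 5.1% lower of all measured genes, with a median log2 ratio of -1.20. Among restricted cells 10 were lower and 0 higher, beside 4.48% lower of all genes, with a median of -1.03. Tcf7 stood at 5.16 CPM (4.09 to 6.44) in expanded clones against 33.4 CPM (28.2 to 39.3) in small clones, 6.47-fold lower (4.89 to 8.61), and 6.12-fold lower in the restricted cells. Every receptor set lay below the small clones in Tcf7, with 0 to 24.9 CPM. By size, small clones of 1 cell stood at 45.1 CPM, those of 2 to 4 cells at 25.8 CPM and those of 5 to 9 cells at 8.29 CPM. Slamf6, a surface receptor of stem-like CD8 T cells, stood at 2.68 CPM against 15.9 CPM (5.94-fold lower, 3.98 to 8.95). Lef1, the partner factor of TCF-1, stood at 4.18 CPM against 15.9 CPM (3.803-fold lower, 2.67 to 5.42).

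S1pr1, the receptor that lets T cells leave tissue for the blood, stood at 2.03 CPM in expanded clones against 24.3 CPM in small clones (12-fold lower, 7.98 to 18.5), and was 10.6-fold lower in the restricted cells. Klf2, the transcription factor that drives S1pr1, stood at 56.7 CPM against 149 CPM (2.62-fold lower, 2.37 to 2.91); neutrophils express it too, with a UMI in 48.5% of them. Ccr7, the receptor for entry into lymph nodes, stood at 22.5 CPM against 115 CPM (5.09-fold lower, 4.43 to 5.86), but 2.26-fold lower in the restricted cells. Il7r, the interleukin 7 receptor, lay within the threshold at 174 CPM against 218 CPM.

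Cxcr3, the receptor for the interferon-induced chemokines CXCL9 and CXCL10, was lower in expanded clones. It lies on chromosome X at 101731535 to 101734269, minus strand, and stood at 8.83 CPM (7.399 to 10.4) in expanded clones against 51.4 CPM (44.9 to 58.5) in small clones, 5.82-fold lower (4.68 to 7.26). The restricted cells gave 8.80 CPM against 59.1 CPM, a 6.72-fold lower level. A Cxcr3 UMI was found in 4.64% of expanded, 20.7% of small-clone and 0.271% of neutrophil cells, and after thinning in 0.966%, 3.34% and 0.122%. Of the 10 receptor sets 9 lay below the small clones; set 8, with 8 UMIs, stood at 66.5 CPM. By size the level was 76.5 CPM in small clones of 1 cell, 20.1 CPM in those of 2 to 4 cells and 22.1 CPM in those of 5 to 9 cells. Cxcr6, a receptor of T cells that stay in tumours, lay within the threshold in the other direction, at 781 CPM against 564 CPM (1.38-fold, 1.33 to 1.45). Over the list of chemokine and homing receptors 7 of 13 measured members were lower and 0 higher, with a median log2 ratio of -0.65. Of all measured genes 5.1% were lower and 2.85% higher. In the restricted cells 5 of the list were lower and 0 higher with a median of -0.00, beside 4.48% and 4.07% of all genes.

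Foxp3, Il1rl1 and Cd4 had the smallest ratios of the 12 genes at that end. Foxp3 had 6 UMIs in 2175 expanded cells and 226 in 599 small-clone cells, 0.392 CPM against 51.4 CPM. Il1rl1, the interleukin 33 receptor, had 22 UMIs against 252, and Cd4 had 44 against 242. In the restricted cells Foxp3 and Cd4 are at 0 by construction, and Il1rl1 was at 0 in small clones and 0.733 CPM in expanded clones. Tnfsf8 (CD30 ligand), Tnfrsf25 (death receptor 3) and Izumo1r (folate receptor 4), which are all found on CD4 T cells, had 35, 3 and 63 UMIs in expanded clones against 154, 49 and 154 in small clones. In the restricted cells Tnfrsf25 and Izumo1r were no longer lower past the threshold, and Tnfsf8 was 2.23-fold lower, against 15.3-fold in all cells. The 5 markers of CD4 helper T cells summed to 63.3 CPM in expanded and 288 CPM in small-clone cells, and the 6 of regulatory T cells to 519 and 747 CPM.

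Other genes among the 12 with the smallest ratios stayed low in the restricted cells. Esm1, a secreted proteoglycan known from endothelium, stood at 1.44 CPM in expanded clones against 27.5 CPM in small clones (19.1-fold lower, 12.1 to 31.6) and was 13.9-fold lower in the restricted cells. Itgae, the alpha chain of the integrin CD103 that binds E-cadherin, stood at 0.588 CPM against 13.9 CPM (23.6-fold lower, 11.6 to 54.0) and was 13.1-fold lower in the restricted cells (5.65 to 32.9), with 9 UMIs against 19. Klrg1, a lectin-like receptor of terminal effector cells, stood at 2.68 CPM against 30.7 CPM (11.4-fold lower, 8.02 to 16.7), and was 3.18-fold lower in the restricted cells (1.78 to 5.50). Ass1, the arginine-forming enzyme, was 6.90-fold lower and 2.17-fold lower in the restricted cells, and 36.2% of its 60-base stretches occur in another gene. Of the 12, 7 stayed at least 1.5-fold lower, but Itgae, Klrg1 and Tnfsf8 no longer met the rule for a measured gene there, and the interval of Tnfsf8 (0.917 to 4.95-fold lower) included equal levels.

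Receptors shared with NK cells leaned to the expanded clones in all cells, and less so in the restricted cells. Of 10 measured members of that list 4 were higher (Klri2, Klre1, Klrd1 and Klrc3) and 1 lower (Cd7). The median log2 ratio was 0.49, and of all measured genes 2.85% were higher and 5.1% lower. In the restricted cells 2 of the list were higher, Klri2 and Klre1, and Cd7 was lower, with a median of 0.14. Of all genes there 4.07% were higher and 4.48% lower. Klrd1, the CD94 chain that pairs with NKG2 receptors, stood at 406 CPM in expanded clones against 248 CPM in small clones (1.63-fold, 1.53 to 1.74), and all 10 receptor sets lay above the small clones. Cd7, a surface protein of T and NK cells, stood at 46.4 CPM against 193 CPM (4.16-fold lower, 3.76 to 4.60), and was 5.82-fold lower in the restricted cells. Ncr1 and Klrb1c, which define NK cells, had 7 and 1 UMIs in expanded clones against 7 and 2 in small clones. For Ncr1 this is 0.458 CPM against 1.59 CPM (3.48-fold lower, 1.04 to 11.6). For Klrb1c it is 0.0654 CPM against 0.455 CPM (6.95-fold lower, 0.362 to 410).

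In all cells 14 of 18 measured genes of T cell receptor signalling and 12 of 17 of IL-12 and IL-18 signalling lay within the threshold. Of all measured genes 6068 of 6592 did. Costimulatory receptors differed between all and restricted cells. Beside the lists of this paragraph, 2.85% of all measured genes were higher and 5.1% lower, and in the restricted cells 4.07% and 4.48%. Of 18 measured genes of T cell receptor signalling 1 was higher (Nfatc1) and 3 lower (Cd5, Nr4a1 and Nfkbid), with a median log2 ratio of -0.02, and in the restricted cells 1 was higher and 0 lower. Of 17 genes of IL-12 and IL-18 signalling 2 were higher, Tbx21 and Il2rb, and 3 were lower, Il2ra, Il18rap and Socs3. Restricted cells had 3 higher, Tbx21, Tyk2 and Il2ra, and 0 were lower. Il12rb2, the signalling chain of the IL-12 receptor, stood at 12.7 CPM in expanded clones against 14.5 CPM in small clones (0.876-fold, 0.658 to 1.18). Tbx21, the gene of T-bet, the factor that drives interferon-gamma, stood at 56.3 CPM against 25.7 CPM (2.19-fold, 1.80 to 2.69). Of 11 costimulatory receptors 3 were higher (Cd200, Cd27 and Cd38) and 2 lower (Tnfrsf4 and Crtam), with a median log2 ratio of -0.10. Restricted cells had 4 higher (Cd200, Cd27, Tnfrsf9 and Tnfrsf4) and 1 lower (Crtam), with a median of 0.43. Cd27 stood at 359 CPM against 193 CPM (1.86-fold, 1.73 to 2.003). Tnfrsf9, the gene of 4-1BB, lay within the threshold at 794 CPM against 586 CPM, and was 1.98-fold higher in the restricted cells. Direction turned for 2 receptors that regulatory T cells carry. Il2ra, the alpha chain of the interleukin 2 receptor, stood at 45.0 CPM against 114 CPM in all cells and at 43.8 CPM against 27.3 CPM in the restricted cells. Tnfrsf4, the gene of OX40, stood at 53.3 CPM against 182 CPM in all cells and at 52.3 CPM against 27.7 CPM in the restricted cells. The lists of tissue residence and effector differentiation had 0 and 1 higher and 4 and 3 lower members of 12 measured each, with medians of -0.13 and -0.05. In the restricted cells, with 11 measured each, these lists had 1 and 2 higher and 3 and 2 lower. The medians there were -0.00 and 0.10.

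Taken over all clusters, expanded clones held no more transcripts of dividing cells than small ones. Of 17 measured genes of DNA replication and mitosis 0 were higher and 6 lower in expanded clones, with a median log2 ratio of -0.31. Of all measured genes 2.85% were higher and 5.1% lower. In the restricted cells 0 of the list were higher and 3 lower, beside 4.07% and 4.48% of all genes. Mki67, the marker of cells in cycle, stood at 36.4 CPM in expanded clones against 66.4 CPM in small clones (1.82-fold lower, 1.58 to 2.104), and Top2a at 56.9 CPM against 74.5 CPM. The direction held in cluster 5, where the log2 ratio of Mki67 was -1.06, and not in cluster 12, where it was 0.45. In cluster 12 the list had a median log2 ratio of 0.38, and 0 of 13 measured members were past the threshold. Of all genes measured in that cluster 6.61% were higher and 5.69% lower. Small clones of 2 to 4 cells carried the highest Mki67 level, 99.1 CPM, against 61.2 CPM in those of 1 cell and 27.6 CPM in those of 5 to 9 cells. The authors' phase column called 15.95% of expanded cells G1 (14.4 to 17.6%), 50.4% S and 33.6% G2M, against 21.9% G1 (18.6 to 25.4%), 43.4% S and 34.7% G2M in small-clone cells. These calls alone do not show cycling.

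Some interferon targets were lower in expanded clones, while antigen presentation and metabolism lay almost wholly within the threshold. Of 22 measured targets of type I interferon 0 were higher and 3 lower in expanded clones, beside 5.1% lower of all measured genes, with a median log2 ratio of -0.35. Restricted cells had 6 of them lower, beside 4.48% of all genes, with a median of -0.24. Of 22 targets of interferon-gamma 1 was higher and 4 lower, beside 2.85% and 5.1% of all measured genes, with a median of -0.30. In cluster 5 1 was higher and 6 lower, beside 3.32% and 5.6% of all genes. Restricted cells had 1 higher and 1 lower with a median of -0.18, beside 4.07% and 4.48% of all genes. The 1 higher gene was Irf8, a transcription factor, at 538 CPM in expanded clones against 237 CPM in small clones (2.27-fold, 2.13 to 2.42). All 15 measured genes of MHC class I presentation lay within the threshold. Of 17 genes of glycolysis and hypoxia 1 was lower (Egln3), and of 15 genes that respond to tissue dissociation 1 was lower (Hspa1b).

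The authors' own scores per cell, which have no true zero and are given as differences between means over cells, pointed the same ways as some of these genes. The scores are not separate evidence, since they come from the same cells and the genes used by the authors are not known here. Their exhaustion score averaged 0.0403 (SD 0.159) in expanded and -0.109 (SD 0.184) in small-clone cells, a difference of 0.149, which was 0.136 in cluster 5 and 0.0827 in cells with a Cd8 UMI and no Cd4 or Foxp3 UMI. Their CXCR3 score averaged -0.0289 (SD 0.0869) and 0.107 (SD 0.144), a difference of -0.136. This difference was -0.129 in cluster 5 and -0.101 in cells with a Cd8 UMI and no Cd4 or Foxp3 UMI. Their activation score differed by -0.113 over all cells, but by -0.00548 within cluster 5 and by -0.0538 within cluster 12, whose cells score far higher than those of cluster 5 in either arm (0.961 against -0.187 in expanded cells).

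The same split was made in the control library, which is small and lies mostly in another cluster. It held 179 cells in 6 expanded clones, the largest with 90 cells, and 271 cells in 173 small clones. Of the expanded and small-clone cells 164 and 233 lay in cluster 8. The levels of the expanded arm there thus lean on 1 clone. Of 5103 measured genes there 325 (6.37%) were higher and 281 (5.51%) lower in expanded clones. Of the 12 genes of largest ratio in the IL-12 library 11 were at least 1.5-fold higher in the control library as well, with 9 of the 12 measured there, and Calca was the exception, at 21.96 CPM in expanded against 33.4 CPM in small clones. All 12 of smallest ratio were at least 1.5-fold lower there, with 6 measured. Of all genes called higher in the IL-12 library and measured in both, 47.9% were called higher in the control library, which is 22.04% of the control calls, and for lower genes these shares were 49.1% and 27.9%. Nrn1 stood at 326 CPM in expanded and 90.5 CPM in small clones of the control library, Lag3 at 653 and 414 CPM, Tcf7 at 7.32 and 40.6 CPM, and Gzma at 141 and 1800 CPM. Gzmb, equal between the arms of the IL-12 library, stood at 559 CPM in expanded and 1347 CPM in small clones of the control library. In the control library too a Cd4 UMI was rarer in expanded clones, with 4.47% of cells against 19.6% in small clones. No difference between the libraries was tested.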

How the data were processed

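Expression was deposited by the authors as log2 values per cell for 11407 genes; the values show the scale to be log2 of counts per 1000000 plus 1. Per the submitters' processing notes, Cell Ranger 2.1.0, STAR 2.6.1, Partek and the mm10 genome were used; the version of Partek and the settings are not given in the sources used here. Each cell has the authors' score values, phase, clone and clone size in the deposited receptor table; no source used here says how they were made. Its group column gives IL-12 for all cells, so its library column was used.

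UMIs were recovered by undoing the logarithm and taking a cell's smallest value above 0 as 1 UMI; all but 13 of 13883686 IL-12 values were whole within 0.1. The table's genes held 70.4% of the UMIs, and CPM use a cell's total. All 3310 IL-12 receptor cells were found by barcode. Levels have exact Poisson and shares exact Clopper-Pearson 95% intervals; the interval of a ratio is exact given the sum of UMIs. Intervals cover counting error alone, and neither differences between mice nor between clones. No cell was left out for doublets. Receptor segment, immunoglobulin, mitochondrial and ribosomal protein genes and pseudogenes were left out of counts. Intervals and calls were tested on simulated Poisson counts. These hold no variation between cells, clones or mice, so they do not check the intervals under such variation. Positions are from GENCODE M21, and gene overlap was counted over stretches of 60 bases of its transcripts. Python 3.11.15, numpy 2.4.6, scipy 1.17.1 and pandas 2.3.3 were used.

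Genes were named by 3 rules: 12 of largest and 12 of smallest log2 ratio among measured genes past 1.5-fold also without cluster 12 and without the largest clone, up to 5 members of each list that had most UMIs, and a fixed set of T cell genes, of which 1 is not reported here. List members outside this rule, and sets and sizes singled out, were named after their values were seen. The cells, lists and rules were chosen with earlier results of these data known. The restricted cells, each of their 2 conditions alone (coreceptor UMIs, and no shared chains), and a small arm of clones of 2 to 9 cells were chosen after seeing the data.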

Additional observations from a re-analysis of the deposited data

How the results depend on the processing

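With all cells 188 genes were higher and 336 lower in expanded clones. The counts were 417 and 596 with clones of 1 cell as the small arm, 118 and 167 with cells thinned to 1000 UMIs, 86 and 143 with a pseudocount of 10 CPM, 436 and 795 with no filter on low counts, 71 and 73 with at least 200 UMIs and 20% of cells, and 58 and 92 at 2-fold. In phase G1 alone 309 were higher, and 395 were with possible doublets left out; that alternative drops cells over 10000 UMIs and cells with a UMI of S100a8, S100a9, Lyz2, Cd79a or C1qa, which takes away 86.5% of expanded and 90.3% of small-clone cells and leaves 293 and 58. Leaving out each expanded clone in turn gave 177 to 229 higher and 329 to 349 lower genes. Cluster 5 alone, no cluster 12, another count of clone size, equal weight per clone, scaling to the table's genes and the 4 alternatives added after seeing the data left both counts within 1.5 times. Among genes named by rule and past the threshold, the log2 ratios that changed sign were Cep41 at -0.28 with doublets left out, Il1rl1 at 0.79 and Izumo1r at 0.18 in cells with a Cd8 UMI and no Cd4 or Foxp3 UMI, and Il1rl1 at 0.79 and Izumo1r at 0.46 in the restricted cells. Of those within it, Ccl3 and Ccl4 passed it the other way, at 0.91 and 0.90, in cluster 5, and other small ratios also crossed 0. Il2ra, Tnfrsf4 and Nr4a1, list members outside the rule, also turned in the restricted cells. Il1rl1 is at 0 UMIs in small clones there, so its value rests on the pseudocount, and the other causes were not tested. No paired analysis was possible because each treatment has 1 library and the labels give no replicate numbers. Genes with few UMIs in the 599 small-clone cells are limited by depth.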

Other observations

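The restricted cells gave a ranking of their own, with genes that the naming rule did not pick. Sema4c, a semaphorin of the class that acts through plexins, stood at 32.1 CPM in expanded clones against 7.44 CPM in small clones (4.32-fold, 2.70 to 7.35), and all 10 receptor sets, with 8.31 to 41.5 CPM, held some. Uhrf2, a ubiquitin ligase that binds modified DNA, had the most UMIs of the 20 highest there, at 268 CPM against 95.1 CPM (2.82-fold, 2.47 to 3.23). Fbxo31, an F-box protein of ubiquitin ligases, stood at 48.7 CPM against 14.1 CPM (3.46-fold, 2.45 to 5.04), Perp, a membrane protein known as a p53 target, at 46.7 CPM against 13.6 CPM (3.43-fold, 2.42 to 5.02), and Cd80, a ligand of CD28 and CTLA-4, at 24.3 CPM against 7.03 CPM (3.46-fold, 2.13 to 6.01). Ptch1, the Hedgehog receptor, stood at 17.4 CPM against 4.96 CPM (3.51-fold, 1.97 to 6.88).

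On the lower side of the restricted cells stood Klra5, a receptor of the Ly49 family, at 17.0 CPM in expanded clones against 64.9 CPM in small clones (3.82-fold lower, 3.11 to 4.68), and Clec2i, a ligand of the NKR-P1 receptor family, at 5.53 CPM against 24.4 CPM (4.41-fold lower, 3.10 to 6.23). Xcl1, the chemokine that draws cross-presenting dendritic cells, stood at 27.7 CPM against 89.7 CPM (3.24-fold lower, 2.74 to 3.83). Itgb7, the beta chain that pairs with CD103, stood at 35.2 CPM against 99.2 CPM (2.82-fold lower, 2.41 to 3.29), beside the low Itgae of expanded clones. All of these genes were singled out after their values were seen.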
